A study of Mus musculus with 24 samples.

Results

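RNA-seq counts were examined for 8 serotonin receptor genes, Htr1a, Htr1b, Htr1d, Htr2a, Htr2c, Htr4, Htr6 and Htr7, out of 52636 gene identifiers counted in the mouse nucleus accumbens (NAc). The members were chosen by name, and the counts on the sense strand were followed in all 24 libraries. The NAc is a ventral striatal region that takes part in reward, and the study asked how early-life stress changes its transcription in each sex. Each library came from the bilateral NAc of 1 C57BL/6 mouse (bred from C57BL/6J parents, per the study's methods) aged 50 days. The mice formed 4 groups of 6, stressed (MSUS) and unstressed (Con) animals of each sex. Con litters were not stressed, and MSUS litters underwent maternal separation with unpredictable maternal stress from postnatal day 1 to 14, for which the labels and the study's methods give different daily hours. The tissue was a punch cut from frozen brain, so a library can hold RNA of the regions around the NAc. Which animals shared a litter or a cage is not given in the sources used here, so each mouse was treated as independent. The labels name a stage of the estrous cycle for only part of the females and also for some males, and the stage was therefore left out.

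Serotonin is made by neurons of the brainstem raphe nuclei, whose axons reach the NAc, and it acts on the receiving cells through receptors that differ in their G protein. The Htr1 receptors (Htr1a, Htr1b and Htr1d) couple to Gi/o and lower cAMP. The Htr2 receptors (Htr2a and Htr2c) couple to Gq/11 and raise intracellular calcium, and Htr4, Htr6 and Htr7 couple to Gs and raise cAMP. In the striatum, several of these receptors are made by projection neurons or by the inputs that end on them, and a receptor at an axon terminal can be made from RNA that lies in a cell body elsewhere.

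The promoters of the receptors are shown because the genes differed in level and moved in different directions between libraries. RefSeq on GRCm38.p6 listed a promoter for 7 of the 8 genes, Htr4 being the exception, and the sequences of the receptors on which the results turned are printed for the Gi/o-coupled Htr1a and Htr1b and the Gq/11-coupled Htr2a and Htr2c. Each runs 5′ to 3′ on the strand of the gene and ends before the annotated gene. Capitals mark a GC box (GGGCGG or CCGCCC) or a CCAAT box (CCAAT or ATTGG).
Htr1a, chr13:105443443-105443638 on the plus strand: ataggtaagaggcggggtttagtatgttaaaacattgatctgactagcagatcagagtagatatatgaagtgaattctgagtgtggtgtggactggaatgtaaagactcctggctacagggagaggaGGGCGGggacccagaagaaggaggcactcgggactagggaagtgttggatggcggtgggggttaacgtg
Htr1b, chr9:81633833-81634082 on the minus strand: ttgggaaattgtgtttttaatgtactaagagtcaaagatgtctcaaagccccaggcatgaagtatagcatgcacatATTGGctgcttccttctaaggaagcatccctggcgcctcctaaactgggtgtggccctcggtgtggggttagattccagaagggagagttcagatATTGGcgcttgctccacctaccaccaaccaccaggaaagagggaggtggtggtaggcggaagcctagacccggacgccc
Htr2a, chr14:74640624-74640839 on the plus strand: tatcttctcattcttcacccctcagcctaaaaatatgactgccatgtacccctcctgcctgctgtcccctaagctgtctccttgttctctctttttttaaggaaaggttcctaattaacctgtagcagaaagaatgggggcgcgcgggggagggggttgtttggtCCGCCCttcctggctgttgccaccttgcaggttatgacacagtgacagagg
Htr2c, chrX:146962263-146962512 on the plus strand: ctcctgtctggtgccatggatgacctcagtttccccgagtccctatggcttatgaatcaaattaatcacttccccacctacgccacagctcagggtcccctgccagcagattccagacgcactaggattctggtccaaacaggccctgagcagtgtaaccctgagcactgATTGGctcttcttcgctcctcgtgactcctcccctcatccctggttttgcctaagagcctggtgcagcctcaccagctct
Over the 250 bases before each RefSeq start, Htr1a and Htr2a each held 1 GC box, Htr1b held 2 CCAAT boxes and Htr2c held 1. Htr1d held 1 of each, and Htr6 held 3 GC boxes. Htr7 held none of the motifs searched, in a window with 82.0% G or C and 41 CpG dinucleotides. Of 32851 promoters of the same length, 32.7% held a GC box and 33.8% a CCAAT box on either strand, and the median promoter had 52.4% G or C and 6 CpG. A TATA box (TATAAA), found in 12.4% of all promoters, and a cAMP response element (TGACGTCA), found in 1.55%, were absent from the 7 windows. These matches describe the letters in the windows only.

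The genes lie at separate places in mm10, with positions from GENCODE M21 on the same assembly. Htr1a occupies chr13:105443639-105448122 and consists of exon throughout. Htr1b lies at chr9:81628291-81633828 and its exons overlap those of D430036J16Rik on the opposite strand, and 9.91% of the counts assigned to its position by strand were on the other strand. Htr1d lies at chr4:136423524-136444398, Htr2a at chr14:74640840-74709494, Htr6 at chr4:139061108-139075570 and Htr7 at chr19:35958734-36057507. Htr2c spans chrX:146962513-147197277 and holds small RNA genes, among them Snora35, Mir764, Mir1912, Mir1264, Mir1298 and Mir448, on its own strand. For Htr6, 19.8% of the strand-specific counts were on the opposite strand, with no annotated gene there. For the remaining 6 genes that share was at most 2.55%.

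The sense counts of all genes summed to between 39923666 and 70575745 per library (median 53316153.5). The receptors were counted at between 129 (Htr4) and 11735 (Htr2c) pairs per library, and none was at 0. All 8 passed the filter on low counts in every comparison. Libraries of a group differed more than counting error in each of 60 pairs. The share of sense-strand pairs assigned to no gene was 31.0% to 34.8% in Con females and 36.3% to 43.9% in MSUS females, which did not overlap, and 32.2% to 44.7% in males. Markers of striatal projection neurons were present in every library, with a summed level between 1914 and 4991 CPM (counts scaled to library size). It was lowest in Con female 3 and MSUS male 6, which also had the highest scores for markers of cortical excitatory neurons, the mean log2 CPM of 9 genes. This score ran from 3.14 to 5.75 in Con females, 0.64 to 4.78 in MSUS females, 2.14 to 5.47 in Con males and 1.88 to 5.86 in MSUS males. Among the markers of serotonergic neurons, Slc6a4 and Fev stayed under 10 counts in every library, and the 4 markers together reached at most 2.51 CPM. The receptor RNA measured here is RNA of the punched tissue, and which cells held it was not tested.

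**Figure D1:**
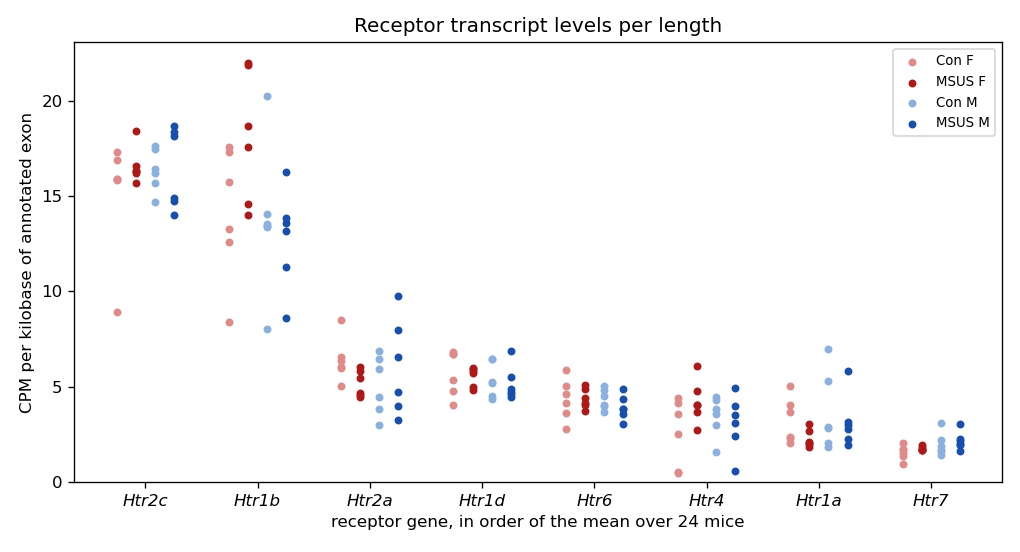
Level of each serotonin receptor in the NAc, in CPM per kilobase of annotated exon, with 1 point per mouse and colors for the 4 groups of 6. Htr2c and Htr1b stood above the others, with means of 16.1 and 14.7, and Htr7 was lowest with a mean of 1.87.

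Per kilobase of exon, Htr2c and Htr1b were the most abundant receptor RNAs in the NAc. Htr2c, a receptor that is also edited at the RNA level, had 16.1 ± 1.97 CPM per kilobase (SD, n = 24 mice) and took 29.7% of the summed level of the 8 genes on average. Htr1b, which sits mainly on axon terminals, had 14.7 ± 3.78 CPM per kilobase and took 26.7%. Htr2a, the receptor through which psychedelic drugs act, followed at 5.68 ± 1.62 and Htr1d, a close relative of Htr1b, at 5.45 ± 0.879 CPM per kilobase. Below them came Htr6 at 4.24 ± 0.714, Htr4 at 3.34 ± 1.43, Htr1a at 3.09 ± 1.39 and Htr7 at 1.87 ± 0.474 CPM per kilobase. The ranges of every pair of neighbours in this order overlapped. Htr1b was above Htr2a in 22 of 24 mice and Htr1d above Htr6 in 24 of 24, whereas Htr2c was above Htr1b in 15 and Htr2a above Htr1d in 11, so that these 2 pairs did not differ beyond their spread. Htr6 was above Htr4 in 20 mice, Htr4 above Htr1a in 16 and Htr1a above Htr7 in 23. Htr2c was first by either length, but its distance from Htr1b depends on the length used, since its level was 30.8 CPM per kilobase when divided by its longest transcript and not by all annotated exon. By the same measure Htr1d was at 6.01 CPM per kilobase, above Htr2a at 5.68. Without regard to strand Htr1b had 10.6 and Htr6 5.36 CPM per kilobase.

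The receptors also differed in how much they varied between mice. Htr2c was the steadiest, with a coefficient of variation of 12.2% over the 24 libraries, followed by Htr1d (16.1%) and Htr6 (16.8%). Htr1a (45.2%) and Htr4 (42.7%) varied the most, and the highest Htr4 library had 12.7 times the CPM of the lowest. For Htr1b, Htr7 and Htr2a the coefficient was 25.7%, 25.4% and 28.5%.

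**Figure D2:**
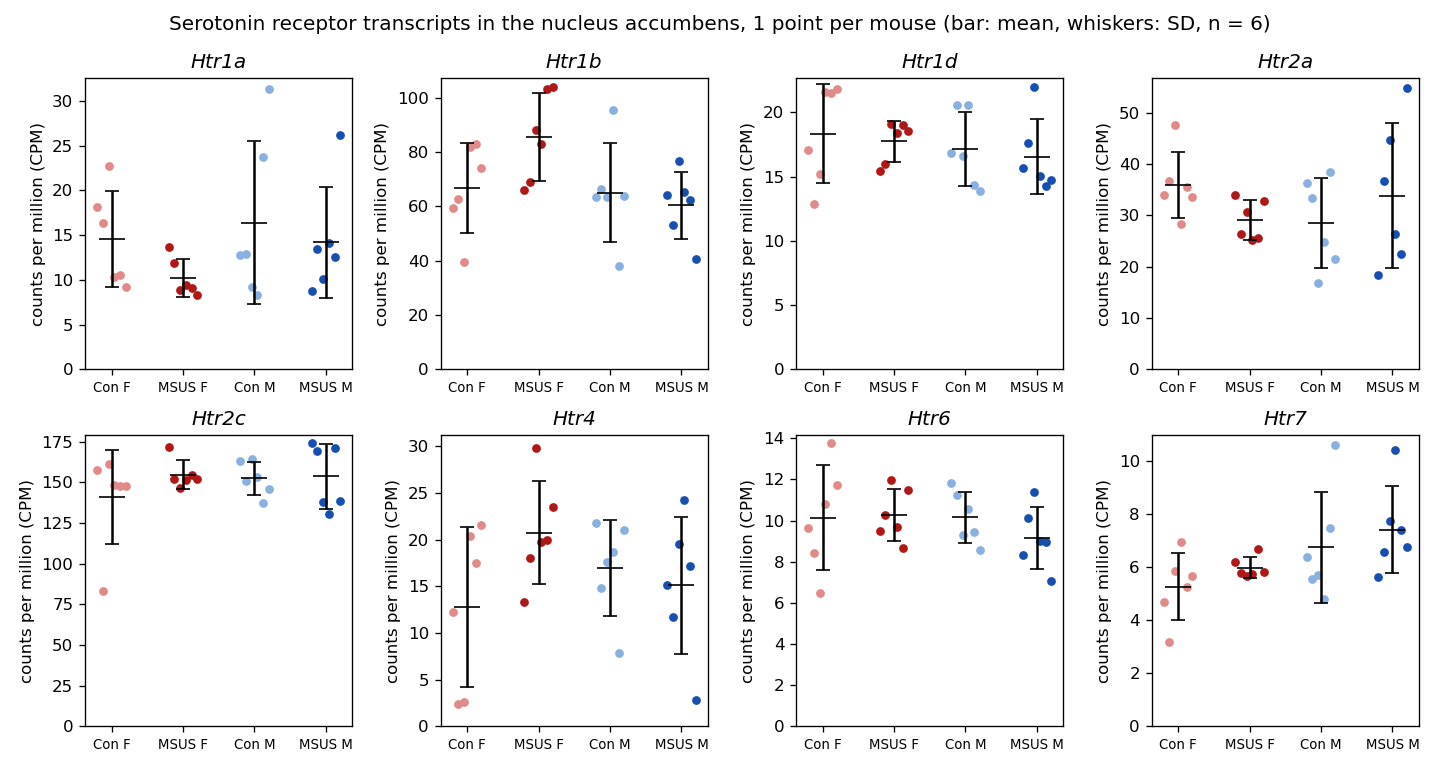
CPM of each serotonin receptor in the 4 groups, with 1 point per mouse, a bar at the mean and whiskers of 1 SD (n = 6). Htr2a was between 28.3 and 47.6 CPM in Con females and between 25.1 and 34.0 in MSUS females, and for all 8 genes the groups overlapped.

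Between MSUS and Con females, the Gq/11-coupled Htr2a was lower and none of the other 7 receptors passed the threshold of an adjusted p under 0.10 (edgeR's quasi-likelihood test with Benjamini-Hochberg adjustment over all genes tested). That is 1 of 8 receptors, beside 25.1% of the 20571 genes tested (11.9% lower). A count of 1 among 8 genes does not show that the receptors differ from all genes in this share. At an unadjusted p under 0.05, edgeR had 2 of 8 receptors, beside 32.7% of all genes. No receptor separated the groups of females without overlap, as 7.29% of all genes did. The median log2 fold change of the 8 receptors was 0.08, and that of all genes was -0.0027. The median size of the change, without its sign, was 0.25 for the receptors and 0.14 for all genes.

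Htr2a RNA had a lowest, median and highest level of 28.3, 34.7 and 47.6 CPM in Con females and 25.1, 28.4 and 34.0 CPM in MSUS females. All 6 MSUS females were below the Con median and 3 were below the lowest Con female. The log2 fold change was -0.30 ± 0.12 (SE, n = 6 per group, edgeR adjusted p = 0.0925). The call rested on single mice. Without Con female 1, 2, 3 or 5 the adjusted p was 0.12, 0.15, 0.15 and 0.12, and without MSUS female 2, 3, 4 or 5 it was 0.18, 0.14, 0.18 and 0.17, in edgeR. With the cortical marker score as a covariate the log2 fold change of Htr2a was -0.10 (edgeR adjusted p = 0.69). With the unassigned share, which did not overlap between the female groups, it was -0.49 (edgeR adjusted p = 0.76). In males the same gene had 16.9, 29.1 and 38.4 CPM in Con and 18.3, 31.5 and 54.8 CPM in MSUS, with a log2 fold change of 0.25 ± 0.28 (edgeR adjusted p = 1.00).

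The other Gq/11-coupled receptor, Htr2c, was nearly level across groups. It had 83.1, 148.2 and 161.5 CPM in Con females and 146.3, 152.1 and 171.8 CPM in MSUS females, a log2 fold change of 0.14 ± 0.13 (edgeR adjusted p = 0.47). Con female 2, at 83.1 CPM, lay far below all other libraries, which were at 130.8 CPM or above, and without it the log2 fold change in females was 0.026 (edgeR adjusted p = 0.74). Con males had 137.1, 152.2 and 164.3 CPM and MSUS males 130.8, 153.9 and 174.3 CPM, a log2 fold change of 0.01 ± 0.08. Htr2c RNA is abundant in the choroid plexus, whose 4 markers summed to between 9.50 and 34.7 CPM per library. The part of the choroid plexus in the Htr2c level was not tested.

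Among the Gi/o-coupled receptors, Htr1a and Htr1b had changes of opposite sign in females that did not pass the threshold. Htr1a, an autoreceptor of raphe neurons that is also made by cortical neurons, had 9.18, 13.5 and 22.7 CPM in Con females and 8.33, 9.27 and 13.7 CPM in MSUS females. Its log2 fold change was -0.50 ± 0.23 (edgeR adjusted p = 0.15), and 5 of 6 MSUS females were below the Con median. DESeq2 called it (adjusted p = 0.075), and so did edgeR without Con female 6 (adjusted p = 0.079) or MSUS female 1 (adjusted p = 0.099). With the cortical marker score as a covariate the log2 fold change of Htr1a was 0.00 (edgeR adjusted p = 0.99). In males Htr1a ranged widely, with 8.34, 12.8 and 31.3 CPM in Con and 8.77, 13 and 26.2 CPM in MSUS, and the log2 fold change was -0.21 ± 0.36. The highest library, Con male 6, also had the highest summed level of markers of neighbouring nuclei, 160.8 CPM against at most 112.3 CPM in the females and 108.2 CPM in MSUS males. The part of that difference in the Htr1a level was not tested.

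Htr1b had 39.6, 68.4 and 83.1 CPM in Con females and 66.0, 85.7 and 103.8 CPM in MSUS females. It was above the highest Con female in 4 of 6 MSUS females, in 1 of them only narrowly, and above the Con median in 5. The log2 fold change of 0.36 ± 0.18 missed the threshold (edgeR adjusted p = 0.18). Over 15 alternatives, some with the cortical marker score as a covariate, it ran from 0.014 to 0.70 and was never called. Htr1b had 37.9, 63.7 and 95.6 CPM in Con males and 40.6, 63.2 and 76.9 CPM in MSUS males, a log2 fold change of -0.11 ± 0.19. Htr1d, the third of this class, had 12.9, 19.3 and 21.8 CPM in Con females and 15.4, 18.5 and 19.1 CPM in MSUS females. Its log2 fold change was -0.04 ± 0.13 in females and -0.05 ± 0.13 in males. With the cortical marker score as a covariate the log2 fold change of Htr1d in females was -0.30, which edgeR called (adjusted p = 0.099).

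The Gs-coupled receptors had changes above 0 in females, and none passed the threshold. Htr4, which in rodents is strongly expressed in the striatum, had 2.34, 14.9 and 21.6 CPM in Con females and 13.3, 19.9 and 29.8 CPM in MSUS females. The Con females fell apart, with Con female 2 at 2.34 and Con female 3 at 2.61 CPM and the other 4 between 12.3 and 21.6. The log2 fold change of 0.70 ± 0.51 (edgeR adjusted p = 0.36) was the largest of the 8 in size and also had the largest error. In males Htr4 had 7.86, 18.2 and 21.8 CPM in Con and 2.85, 16.1 and 24.3 CPM in MSUS, a log2 fold change of -0.17 ± 0.40. MSUS male 6 was the low library there. Without MSUS male 6 the log2 fold change of Htr4 in males was 0.05, of the opposite sign.

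Htr6, which is concentrated in the striatum, had 6.50, 10.2 and 13.8 CPM in Con females and 8.67, 9.98 and 11.96 CPM in MSUS females, a log2 fold change of 0.02 ± 0.15 (edgeR adjusted p = 0.94). Its sign turned under several other settings. In males Htr6 had 8.57, 10.01 and 11.8 CPM in Con and 7.08, 8.99 and 11.4 CPM in MSUS, and the log2 fold change was -0.15 ± 0.11. Htr7, the least abundant receptor, which is best known from the thalamus and hypothalamus, had 3.19, 5.47 and 6.93 CPM in Con females and 5.67, 5.80 and 6.69 CPM in MSUS females. All 6 MSUS females were above the Con median, and the log2 fold change was 0.19 ± 0.14 (edgeR adjusted p = 0.37). Con males had 4.78, 6.04 and 10.6 CPM of Htr7 and MSUS males 5.61, 7.07 and 10.4 CPM, a log2 fold change of 0.14 ± 0.19. In a bulk sample, fewer cells of a type and less RNA per cell cannot be told apart for any of these genes.

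**Figure D3:**
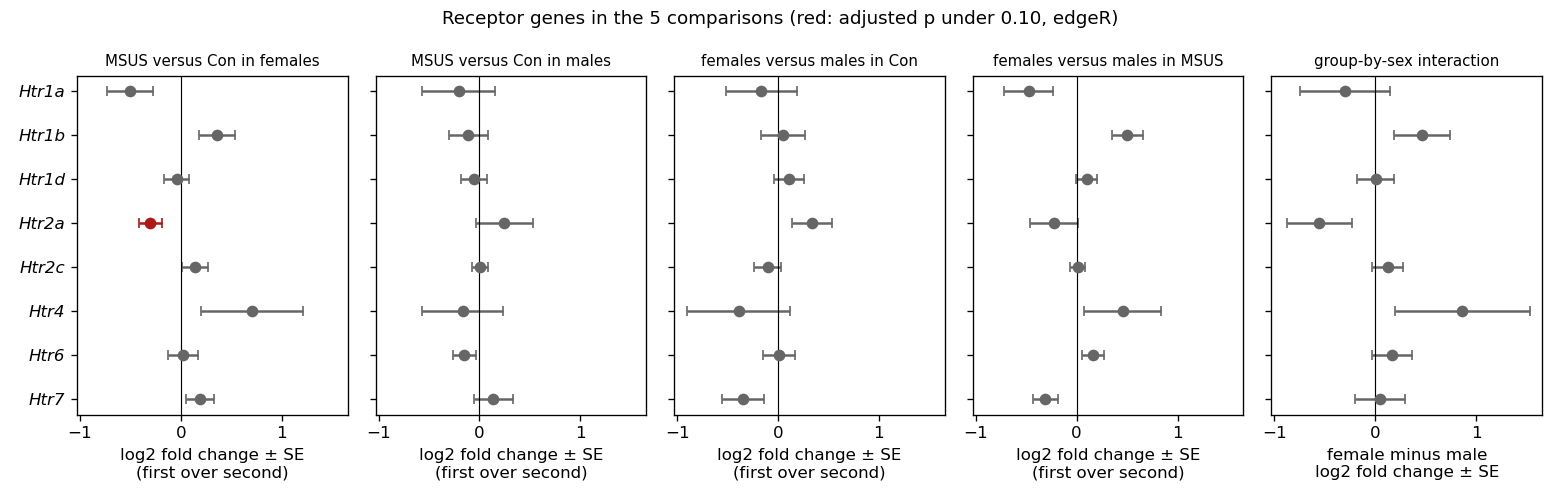
Log2 fold change of each serotonin receptor with its SE (edgeR) in the 5 comparisons, with the called gene in red. Htr2a in females, at -0.30, is the only value past the threshold, and Htr4 has the widest error in each comparison.

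In males, MSUS and Con animals did not differ in any receptor at the threshold. EdgeR called 0 of 8 receptors beside 0.0% of the 20691 genes tested, and DESeq2 also called 0 genes. At an unadjusted p under 0.05, edgeR had 0 of 8 receptors and 191 of all genes, 0.923%. The log2 fold changes of the receptors lay between -0.21 (Htr1a) and 0.25 (Htr2a).

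Whether the effect of MSUS differed between the sexes was tested as a group-by-sex interaction over all 24 mice. EdgeR called 0 of 8 receptors and 0 of 21500 genes (0.0%), and DESeq2 called 467 genes, none of them a receptor. At an unadjusted p under 0.05 the interaction had 0 of 8 receptors beside 4031 genes, 18.7%. The receptors with the largest values were Htr4, at 0.86 ± 0.67 (edgeR adjusted p = 0.47), Htr2a at -0.55 ± 0.32 (edgeR adjusted p = 0.34) and Htr1b at 0.47 ± 0.27 (edgeR adjusted p = 0.34), each given as the log2 fold change in females minus that in males. The call of Htr2a in females and not in males is therefore not shown to differ between the sexes.

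Females and males were then compared within each rearing group. Among Con animals edgeR called 0 of 8 receptors, beside 2.64% of the 20641 genes tested (0.799% higher and 1.84% lower in females), and 0 of 8 had an unadjusted p under 0.05 (17.8% of all genes). DESeq2 called 0 of 8 as well, and the sexes overlapped for all 8 receptors, while they did not for 2.03% of genes. The largest differences were Htr4, with a log2 fold change of females over males of -0.39 ± 0.52 (edgeR adjusted p = 0.72), Htr7 with -0.35 ± 0.21 (edgeR adjusted p = 0.40) and Htr2a with 0.34 ± 0.20 (edgeR adjusted p = 0.39). Among MSUS animals edgeR called 0 of 8, beside 0.135% of the 20714 genes tested (0.0386% higher and 0.0966% lower in females), and so did DESeq2. The sexes again overlapped for all 8, while they did not for 0.642% of genes. There, 2 receptors had an unadjusted p under 0.05, as 7.29% of all genes did. Htr1b was higher in MSUS females than in MSUS males by 0.50 ± 0.15 on the log2 scale (edgeR adjusted p = 0.48), and all 6 females were above the male median. Htr7 differed by -0.31 ± 0.12 (edgeR adjusted p = 0.65), with all 6 females below the male median. The X-linked Htr2c had a log2 fold change of females over males of -0.10 ± 0.13 in Con and 0.01 ± 0.08 in MSUS animals.

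**Figure D4:**
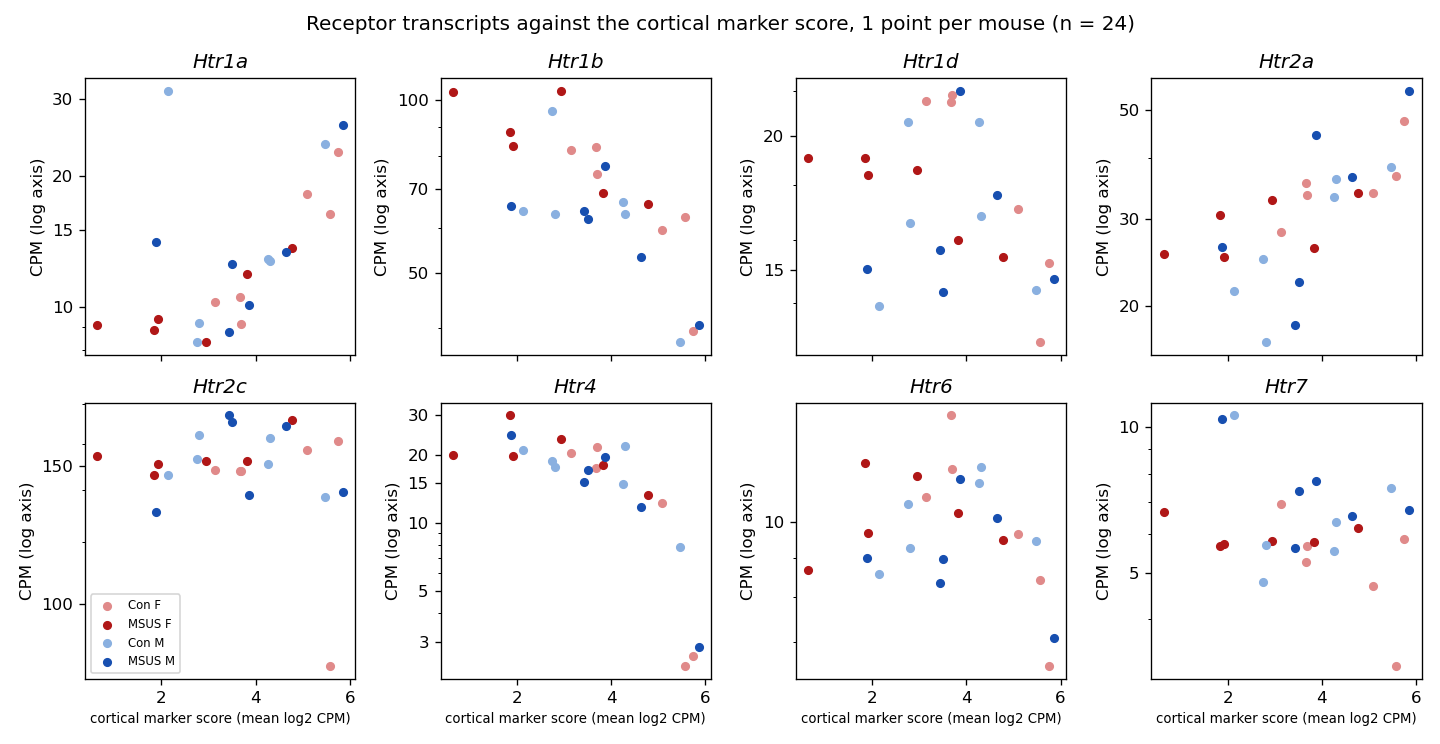
CPM of each serotonin receptor on a log axis against the cortical marker score (mean log2 CPM of 9 genes), with 1 point per mouse and colors for the 4 groups (n = 24). Htr4 and Htr1b fall and Htr2a rises along the score, with r of -0.76, -0.75 and 0.67, and the 3 lowest Htr4 libraries have scores between 5.57 and 5.86.

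Htr2a and Htr1a rose with the cortical marker score of the libraries, Htr4 and Htr1b fell, and the other receptors had no relation that passed. The share of all genes that rise or fall with the score was not computed. The score differed between punches of the same group, and in females the 9 cortical markers had a median log2 fold change of -1.82 (2 of 9 called lower by edgeR), so it moved with the comparison in which Htr2a was called. Relations of log2 CPM with the score and with the unassigned share were computed for the 8 receptors, 16 in all, with 100000 permutations each.

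Htr4 fell with the cortical score over the 24 mice, with Pearson's r = -0.76 (permutation p = 1e-05, the smallest these permutations can give, adjusted p = 0.00016) and Spearman's rho = -0.78 (permutation p = 2e-05). The r was -0.77 without the 2 mice farthest from the median score, -0.71 after removing the group means, and -0.69 and -0.85 within library numbers 1 to 12 and 13 to 24. Htr1b also fell, with r = -0.75 (permutation p = 3e-05, adjusted p = 0.00024) and rho = -0.71 (permutation p = 0.00024). Its r was -0.67 without the 2 farthest mice, -0.74 within groups, and -0.84 and -0.64 within the sets of libraries.

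Htr2a rose with the score, with r = 0.67 (permutation p = 0.00029, adjusted p = 0.0015) and rho = 0.79 (permutation p = 2e-05). The r was 0.64 without the 2 farthest mice, 0.66 within groups, and 0.55 and 0.86 within the sets of libraries. Htr1a rose with r = 0.55 (permutation p = 0.0053, adjusted p = 0.021) and rho = 0.62 (permutation p = 0.0014). Its r was 0.45 without the 2 farthest mice, 0.49 within groups, 0.83 in libraries 1 to 12 and 0.30 in libraries 13 to 24, the set that holds Con male 6, where Htr1a was highest at a cortical score of 2.14.

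For Htr1d, Htr2c, Htr6 and Htr7 the r with the score lay between -0.34 and -0.18 and the adjusted permutation p was 0.18 or more. With the unassigned share, Htr2a had r = -0.53 (permutation p = 0.0078, adjusted p = 0.025, rho = -0.54 with permutation p = 0.0072), which was -0.48 without the 2 farthest mice, -0.47 within groups, and -0.54 and -0.57 within the sets. Htr1a had r = -0.45 (adjusted permutation p = 0.058) and rho = -0.51 (adjusted permutation p = 0.031), which was under 0.05 for rho but not for r. Htr4 had r = 0.46 (adjusted permutation p = 0.058) and rho = 0.40 (adjusted permutation p = 0.11). The remaining receptors also had an adjusted permutation p above 0.05 for both. The part of the cortical score in the female result of Htr2a was not tested beyond the fits with covariates. The unassigned share did not overlap between Con and MSUS females, so its part and that of MSUS cannot be told apart.

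Pairs of receptors moved together or apart across the 24 libraries, and 11 of 28 pairs had an adjusted permutation p under 0.05 for r. Among these, Htr1a with Htr6, Htr1d with Htr4 and Htr2a with Htr4 did not pass for rho (adjusted permutation p = 0.061, 0.088 and 0.070). The share among pairs of all genes was not computed, so the count does not set the receptors apart from other genes. Htr1a and Htr1b went in opposite directions, with r = -0.79 (permutation p = 1e-05, adjusted p = 0.00028) and rho = -0.78 (permutation p = 2e-05), and r = -0.86 without the 2 farthest mice. Htr1d and Htr6 went together, with r = 0.72 (permutation p = 2e-05, adjusted p = 0.00028) and rho = 0.77 (permutation p = 4e-05), and r = 0.70 without the 2 farthest. Htr1b and Htr4 had r = 0.70 (permutation p = 0.00025, adjusted p = 0.0017) and rho = 0.68 (permutation p = 0.00036), and r = 0.61 without the 2 farthest. Within groups these values were -0.77, 0.72 and 0.73, and within the sets of libraries they were -0.85 and -0.78, 0.66 and 0.82, and 0.81 and 0.66. The points of each pair share their libraries and thus depth and dissection.

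For each receptor, the 2 genes with the most similar log2 CPM over the 24 libraries were picked from 15935 genes with a mean of at least 1 CPM, as a description. Htr4 was most like Chn2 (r = 0.98), which encodes a Rac-regulating chimaerin, and Sox1ot (r = 0.97). For Htr1a these were the muscarinic receptor gene Chrm2 (r = 0.96) and Cntnap4 (r = 0.92), and for Htr1b Cdc42ep3 (r = 0.95) and Baz1a (r = 0.95). Htr2a was closest to Sema7a (r = 0.94), a semaphorin gene, and the potassium channel gene Kcnk1 (r = 0.94). Htr1d was closest to Kcnd2 (r = 0.89), another potassium channel gene, Htr6 to Jsrp1 (r = 0.91) and Arel1 (r = 0.91), and Htr7 to Ttc39a (r = 0.91). Htr2c had the weakest likeness, with Sms (r = 0.83), which encodes spermine synthase, and Ireb2 (r = 0.81).

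The other genes of the serotonin pathway were taken as 5 lists of 24 genes, of which 18 were tested in the comparisons of 2 groups. In females edgeR called 1 of 18, lower, beside 25.1% of all genes, and their median log2 fold change was -0.07. At an unadjusted p under 0.05 there were 5 of 18, beside 32.7% of all genes. The called gene was S100a10, whose product p11 binds Htr1b and Htr4 and brings them to the cell surface. S100a10 had 4.67, 5.65 and 12.03 CPM in Con females and 3.90, 4.31 and 4.68 CPM in MSUS females. Of the 6 MSUS females, 5 were below the lowest Con female, and the log2 fold change was -0.66 ± 0.20 (edgeR adjusted p = 0.044). It was -0.42 without Con female 3, the highest library (edgeR adjusted p = 0.031), and -0.31 with the cortical marker score as a covariate (edgeR adjusted p = 0.47). In males the log2 fold change of S100a10 was 0.16 ± 0.25.

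None of the other genes on the list of receptor partners and editing passed in females. Mpdz, a scaffold that binds Htr2c, had a log2 fold change of -0.38 ± 0.25 (edgeR adjusted p = 0.31), and Dlg4, a postsynaptic scaffold, -0.10 ± 0.06. In the Adar gene family, Adarb1, which edits Htr2c RNA, had -0.23 ± 0.11 (edgeR adjusted p = 0.17), Adarb2 0.19 ± 0.09 (edgeR adjusted p = 0.14) and Adar -0.01 ± 0.03. Arrb2, an arrestin, had -0.03 ± 0.04.

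Of the 6 other receptor genes, Htr1f, Htr3a, Htr5a and Htr5b were tested in females, and edgeR called 0 of 4. At an unadjusted p under 0.05 there was 1 (Htr5a), beside 32.7% of all genes. DESeq2 called Htr5a. Htr5a had 11.7, 14.3 and 25.2 CPM in Con females and 10.01, 10.96 and 15.3 CPM in MSUS females, a log2 fold change of -0.40 ± 0.18 (edgeR adjusted p = 0.14). Htr5b had a log2 fold change of -0.64 ± 0.35, Htr3a of -0.33 ± 0.20 and Htr1f of 0.00 ± 0.07. Htr2b and Htr3b had at most 7 and 4 counts in a library and were not tested.

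Of the genes for the synthesis of serotonin, 2 were tested in females and 0 were called by edgeR. At an unadjusted p under 0.05 there was 1 (Ddc), beside 32.7% of all genes. DESeq2 called Ddc. Tph2, the rate-limiting enzyme of neurons, had between 6 and 37 counts per library and a log2 fold change of -0.52 ± 0.25 in females (edgeR adjusted p = 0.16). Ddc, which completes the synthesis of serotonin and also makes dopamine, had 5.63, 8.17 and 10.5 CPM in Con females and 7.93, 11.05 and 11.9 CPM in MSUS females, a log2 fold change of 0.38 ± 0.15 (edgeR adjusted p = 0.11). Tph1 was tested in the interaction only, and Fev was not tested. Of the transporters, Slc18a2, Slc22a3 and Slc29a4 were tested, with log2 fold changes of 0.24, 0.03 and 0.15 in females, and Slc6a4 and Slc22a2 were not. The breakdown enzymes Maoa and Maob had log2 fold changes of -0.04 ± 0.05 and -0.18 ± 0.08 (edgeR adjusted p = 0.12 for Maob). In the other 4 comparisons 0 of the tested pathway genes were called by edgeR or by DESeq2. Of all genes, edgeR called 0.0% in males, 2.64% between the sexes in Con animals, 0.135% in MSUS animals and 0.0% in the interaction. DESeq2 called 0.0%, 7.32%, 0.806% and 2.17% in the same order. The unadjusted p was under 0.05 for 0 of 18 in males (0.923% of all genes) and in the comparison of the sexes in Con animals (17.8%). It was under 0.05 for 2 of 18 in that in MSUS animals (Maoa and S100a10, beside 7.29% of all genes). In the interaction it was so for 3 of 19 (Htr5a, Htr5b and S100a10), beside 18.7% of all genes.

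Marker lists of cell types give the setting of the female comparison. EdgeR called lower 5 of 6 oligodendrocyte, 2 of 6 astrocyte, 2 of 6 striatal interneuron and 1 of 4 oligodendrocyte precursor markers beside the 2 of 9 cortical ones, where 11.9% of all genes were called lower. It called 0 of 10 markers of striatal projection neurons, 0 of 5 of microglia, 0 of 5 of endothelial cells, 0 of the 5 tested of neighbouring nuclei, 0 of the 2 tested of the choroid plexus and 0 of the 2 tested of serotonergic neurons. At an unadjusted p under 0.05 these last lists had 0 of 10, 1 of 5, 3 of 5, 0 of 5, 0 of 2 and 0 of 2. Of all genes, 32.7% were under 0.05. The part of these cell types in the levels of the receptors was not tested.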

How the data were processed

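The study made libraries from total RNA after removal of ribosomal RNA. Per the labels and the study's methods, read pairs were aligned by STAR 2.6.1b, with mm10 as the genome and GENCODE M15 as the annotation. For every library the authors deposited STAR's table of counts, which holds pairs with a unique position, is not normalized, and has 3 columns, for both strands together and for either strand. Rows that name no gene were kept out of library sizes and tests, and their share is given with the results. The authors' tables of fold changes and p values were not used.

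Here the column of the strand that held most pairs was taken as sense, genes were matched to GENCODE M21 (52489 of 52636 identifiers), filtered with edgeR's filterByExpr (minimum count 10), normalized by TMM and tested with edgeR 4.0.16 (robust quasi-likelihood F test, R 4.3.3), separately in each comparison, with Benjamini-Hochberg adjustment over all genes tested and a threshold of 0.10. CPM are TMM-normalized over the 24 libraries, log2 CPM used a prior count of 0.5, and the SE is the log2 fold change divided by the square root of F. Correlations used 100000 permutations (numpy 2.4.6, pandas 2.3.3, Python 3.11.15), and figures matplotlib 3.10.9. The procedure was tested on simulated counts. These gave every gene the same spread between mice beyond counting error and held no differences in cortical score or unassigned share. The simulation therefore does not cover these features of the real libraries.

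Named were the 8 receptors, all genes of the 5 serotonin pathway lists, and for each receptor the 2 genes most correlated with it, of which the second for Htr1d and for Htr7 is not reported here. The members and lists were chosen with earlier results of these data known. The p values measure the spread between single mice. The receptors had 129 to 11735 counts per library, and Htr7 had the fewest in all, so counting error weighs most on Htr7. The study's female model held the estrous stage, which the labels give for 6 of 12 females, so it was left out. The alternatives were DESeq2 1.42.0, its size factors, no count filter, a minimum of 10 counts in each mouse, the column for both strands, a replicate block, covariates (library set by library number, spliced share from the study's library statistics, unassigned share, cortical marker score), offsets for GC content and length, all mice in 1 fit, a threshold of 0.05, and each mouse left out. The fits without Con female 3 and MSUS male 6, the libraries with the lowest striatal projection neuron markers, and with the cortical score and unassigned share together were added after the data were seen. A comparison of 2 groups holds only 1 of these mice. There the fit without them is the same as that leaving out this mouse, and it is counted under both.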

Additional observations from a re-analysis of the deposited data

Results flagged for a closer look

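Single mice stood apart from their group in 3 of the 32 groups of 6 values tested (8 receptors in 4 groups), where the gap to the nearest other mouse exceeded Dixon's 95% critical value of 0.625 of the range. Chance flags about 1 in 20 such groups. Htr1a was 26.2 CPM in MSUS male 6, against 8.77 to 14.1 CPM in the other 5 MSUS males. Htr2c was 83.1 CPM in Con female 2, against 147.7 to 161.5 CPM in the other 5 Con females. It was 171.8 CPM in MSUS female 1, against 146.3 to 154.5 CPM in the other 5 MSUS females.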

How the results depend on the processing

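Under the other settings, 1168 log2 fold changes of receptors were compared with those reported. Of these, 1051 kept their sign and their side of the threshold, 96 changed sign, 17 lost the call and 4 gained one. The setting with a threshold of 0.05 reuses the reported fits. Only Htr2a in females had a call to lose. It kept the call in 6 of 15 alternatives and in 4 of 12 fits that left out 1 mouse. In females, receptors called numbered 1 as reported, 2 with DESeq2 (Htr1a and Htr2a, beside 28.1% of all genes), and 0 with no filter on low counts (10.1% of all genes called), at least 10 counts in every animal, the spliced share, the unassigned share, all 24 mice in 1 fit, without Con female 3 and MSUS male 6, with cortical score and unassigned share together, or at an adjusted p under 0.05. The count stayed 1 with the cortical score alone (8.53% of all genes), but the gene was then Htr1d and not Htr2a. Leaving out each mouse gave 0 to 2. Among all genes the female count fell from 5156 to 0 with the spliced or the unassigned share, neither of which overlapped between the 2 groups, to 1754 with the cortical score and to 3380 with GC and length offsets. Other pathway genes called numbered 1 as reported, 4 with DESeq2, 2 with at least 10 counts in every animal and 2 in 1 fit of all mice. They numbered 3 without regard to strand (29.0% of all genes), 2 with the library set (25.1%) and 5 with GC and length offsets (16.5%). Without Con female 3 and MSUS male 6 there were 3. There were 0 with the spliced share, the unassigned share, the cortical score, or score and unassigned share. With each mouse left out there were 1 to 5 (S100a10 stayed among them in each). The shares of all genes not given here are those above. Per kilobase, Htr1b was 10.6 and Htr6 5.36 CPM without regard to strand, and Htr2c 30.8 CPM by its longest transcript. Summed over libraries, Htr1b had 62473 counts without regard to strand and 88388 sense counts, and Htr6 had 15730 and 12727. The longest transcript of Htr2c has 4883 bases, and all its annotated exon 9328. The cause of the changes in the numbers called was not tested.

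The replicate numbers shared by the groups were not found to pair the mice, since the deviations of same-numbered mice correlated between -0.35 and 0.37 over the 4 comparisons of 2 groups, and no comparison had more than 3 of 6 pairs over 0.1 or more than 3 mice that correlated best with their own number. With the replicate block the female count was 1 receptor (Htr2a) and 2 other pathway genes (Maob and S100a10), and Htr6 in Con animals was -0.021.

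Signs changed as follows, on the log2 scale, for values that were not called. In the female comparison, Htr1a was 0.0038 with the cortical score and 0.26 with score and unassigned share, Htr1d 0.070 with the unassigned share, Htr2c -0.013 with the spliced share, and Htr4 -0.32 with score and unassigned share. Htr6 was -0.0045 without regard to strand, -0.094, -0.061 and -0.13 with the spliced share, unassigned share and score, -0.32 with score and unassigned share, and -0.080 without Con female 3 and MSUS male 6. In males, Htr4 was 0.050 without those mice. Between the sexes in Con animals, Htr2c was 0.16 and Htr4 0.39 with the spliced share and Htr4 0.12 with the unassigned share. Htr6 there was -0.0013 with DESeq2, -0.0015 with its size factors, -0.0064 with no filter, -0.0021 with at least 10 counts, -0.013 with the unassigned share, -0.12 with offsets, -0.0016 in 1 fit and -0.031 with score and unassigned share. Between the sexes in MSUS animals, Htr2a was 0.060, 0.050, 0.039 and 0.21 with the spliced share, the unassigned share, the score, and score with unassigned share. Htr2c was -0.039, -0.031 and -0.018 with the spliced share, the unassigned share and without the 2 mice, and Htr4 -0.038 with score and unassigned share. In the interaction, Htr1a was 0.43, 0.47, 0.15, 0.73 and 0.14 with the spliced share, unassigned share, score, score with unassigned share, and without the 2 mice. Htr1d was -0.019 without regard to strand, and -0.016, -0.15, -0.10 and -0.074 with the spliced share, the score, score with unassigned share, and without the 2 mice. Htr2a was 0.025, 0.026 and 0.27 with the spliced share, the unassigned share, and score with unassigned share, which also gave Htr1b -0.081 and Htr4 -0.21. Htr2c was -0.060 with the spliced share and Htr7 -0.13 with the score.

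With each mouse left out, the signs changed within these ranges. In females Htr1d ran from -0.13 to 0.013 and Htr6 from -0.080 to 0.12. In males Htr1a ran from -0.47 to 0.082, Htr1b from -0.23 to 0.035, Htr1d from -0.15 to 0.0093, Htr2c from -0.025 to 0.051 and Htr4 from -0.36 to 0.050. Between the sexes in Con animals Htr1a ran from -0.35 to 0.11, Htr1b from -0.091 to 0.19 and Htr6 from -0.10 to 0.091, and in MSUS animals Htr2c from -0.025 to 0.055. In the interaction Htr1d ran from -0.074 to 0.11 and Htr7 from -0.14 to 0.16. All 8 receptors passed the count filter in every comparison, and the effect of depth on their tests was not tested.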
